A study of Mus musculus with 6 samples.

Results

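Mitochondria carry their own ribosome, which translates the few mRNAs encoded by mitochondrial DNA into core subunits of the respiratory chain complexes and of ATP synthase. Its RNA is made inside the organelle, but its proteins are encoded in the nucleus, made in the cytosol and imported, so the liver must express many separate nuclear genes to build one particle. Some of these proteins have counterparts in the bacterial ribosome, and others were added in mitochondria. Their genes carry the symbols Mrpl for the large subunit and Mrps for the small one.

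The rows of the count table whose symbol is Mrpl or Mrps followed by a number and at most one letter were taken as the mitochondrial ribosomal protein genes. There were 78 of them among 56674 rows, 49 Mrpl and 29 Mrps, and 6 pseudogene rows were left out. The study measured liver RNA of male C57BL/6 mice at 71 weeks, in 3 libraries from mice given chow with polyethylene microplastic (PE-MP chow) and 3 libraries from mice given normal chow. No transgene or other agent is named for either chow, and the labels give no dose, particle size or length of exposure and no batch. They number the libraries as replicates but do not say that each came from a separate mouse, so p-values measure the spread between libraries, which may be technical. The libraries held 88266936, 75176645 and 91898953 counts on PE-MP chow and 75897165, 68357478 and 112566641 counts on normal chow, and a single mitochondrial ribosomal protein gene had between 260 and 14077 counts in a library. All 78 passed the filter on low counts. Unless stated otherwise, levels below are CPM, counts scaled to a library of common size, with TMM factors (trimmed mean of M values).

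The tissue was liver by its markers, whose sums in this paragraph are CPM of total counts without TMM factors. The 6 hepatocyte markers summed to 72572 to 75703 CPM on PE-MP chow and 51102 to 66450 CPM on normal chow. With TMM factors the chows overlapped for each of these 6 genes. The 7 Kupffer cell markers summed to 149 to 236 CPM on PE-MP chow and 85.1 to 114 CPM on normal chow, and the 6 endothelial markers to 132 to 174 CPM on PE-MP chow and 73.2 to 97.0 CPM on normal chow. With TMM factors, 3 of the 7 Kupffer cell markers (42.9%) and 1 of the 6 endothelial markers (16.7%) were higher without overlap. Among all tested genes 14.2% were. The 4 B and plasma cell markers summed to 4.23 to 7.91 CPM on PE-MP chow and 15.2 to 46.1 CPM on normal chow, and the 3 neutrophil markers, with Ly6g at 0, to 1.68 to 1.84 CPM on PE-MP chow and 0.489 to 0.672 CPM on normal chow. Mitochondrially encoded mRNAs took 8.63% to 9.19% of all counts on PE-MP chow and 14.2% to 15.1% on normal chow, and the 18S rRNA row took 0.334% to 5.98% on PE-MP chow and 1.149% to 11.2% on normal chow, with the highest share in normal chow library 2. In bulk liver, fewer cells of a type and less RNA per cell cannot be told apart, and the part of these shifts in the results below was not tested.

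No mitochondrial ribosomal protein gene passed the test between the chows. By edgeR's quasi-likelihood test with Benjamini-Hochberg adjustment over 18043 genes, 0 of the 78 had an adjusted p under 0.05 in either direction, against 0.00554% of all tested genes called higher (1 gene) and 0% called lower. The values nevertheless leaned one way. The median log2 fold change of PE-MP chow over normal chow was -0.29 over the 78 genes, with a range of -0.80 to 0.54, against 0.02 over all tested genes, and 69 of the 78 values (88.5%) were negative, against 48.3% of all genes. Without adjustment, 22 of the 78 had an edgeR p under 0.05 with a lower level on PE-MP chow and 0 with a higher one, against 8.82% lower and 9.1% higher among all tested genes. In 30 genes every PE-MP library lay below every normal chow library, and in 0 genes above, against 11.8% and 14.2% of all tested genes. The 95% interval of the log2 fold change lay within -1 and 1 for 67 of the 78 (85.9%), against 49.7% of all tested genes, so a change of more than 2-fold lay outside the interval for most members.

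**Figure D1:**
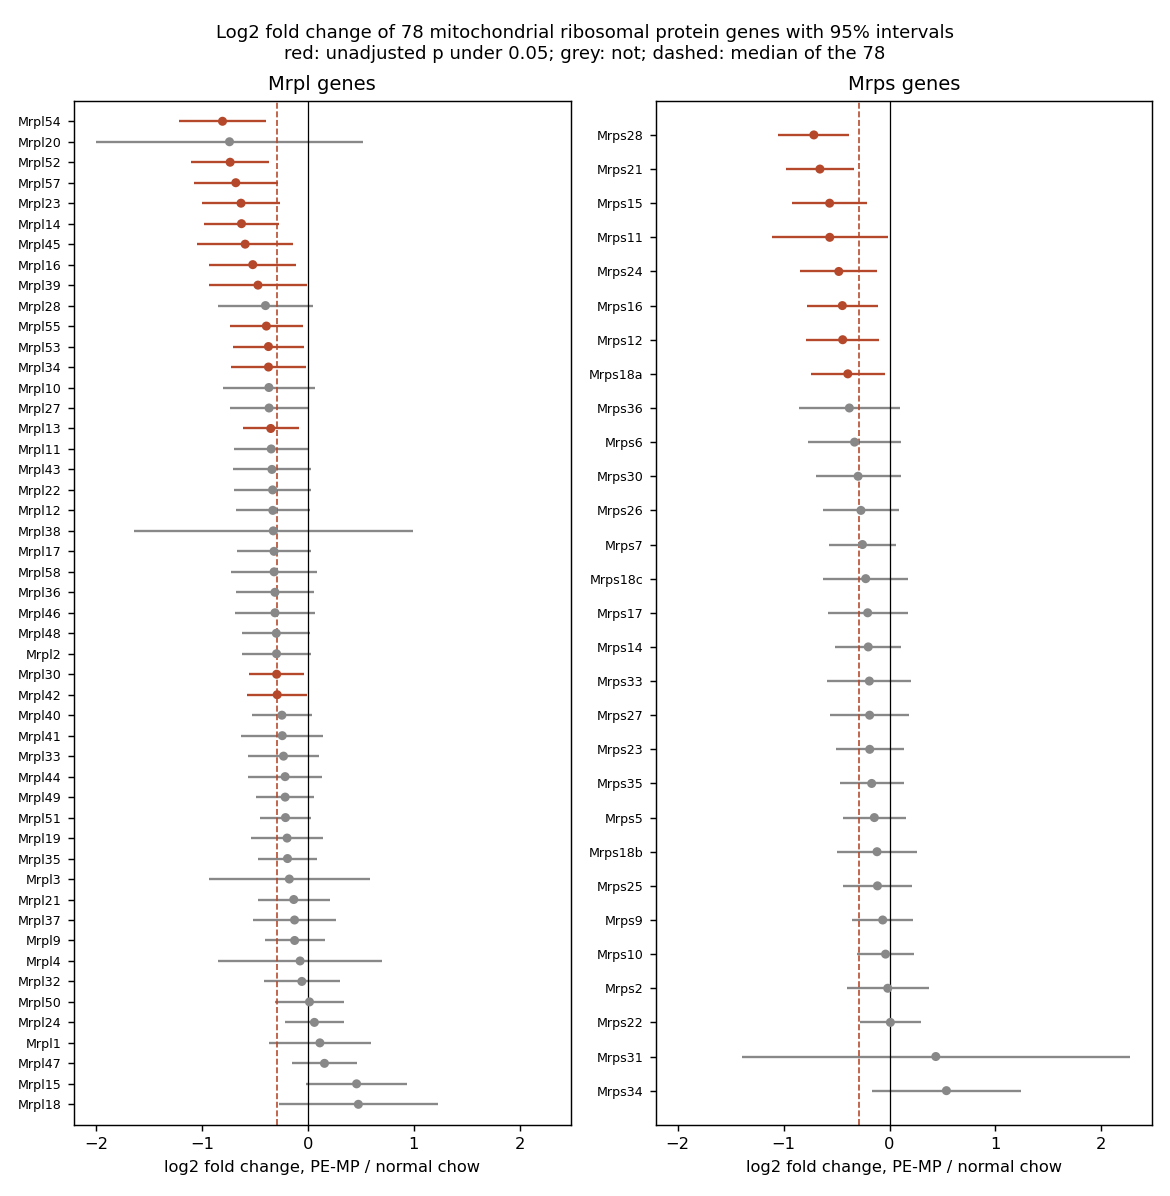
Log2 fold change (points) and 95% interval (lines) of PE-MP chow over normal chow for the 49 Mrpl genes (left) and the 29 Mrps genes (right), from edgeR with TMM scaling. Red marks the 22 genes with an unadjusted p under 0.05, the dashed line is the median of the 78 at -0.29, and 69 of the 78 points lie left of 0 (35 with scaling to total counts).

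The size of that lean depended on what the libraries were scaled to. TMM factors were 1.07 to 1.17 on PE-MP chow and 0.879 to 0.923 on normal chow. Scaled to total counts alone, a setting added after the data were seen, the median over all tested genes moved to 0.32 and that over the 78 genes to 0.011, with 43 positive and 35 negative values. As a share of all counts, the 78 genes together took 0.207%, 0.198% and 0.211% on PE-MP chow and 0.213%, 0.171% and 0.222% on normal chow, and the chows overlapped. Outside the mitochondrially encoded and 18S rows the shares were 0.247%, 0.227% and 0.235% on PE-MP chow and 0.259%, 0.236% and 0.268% on normal chow, which overlap as well. The distance of the 78 genes from the median gene hardly moved, at -0.31 with TMM and -0.31 with total counts. Under these scalings 71 and 70 of the 78 lay below the median of all genes. Scaling shifts all genes of a library alike, so this distance was nearly fixed in advance and is no check of the lean. The values below are therefore positions relative to the other genes in the libraries, not amounts per cell.

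The calls also depended on the tool and on normal chow library 2. DESeq2 called 8 of the 78 lower and 0 higher at an adjusted p under 0.05, against 3.48% lower and 3.1% higher of 18009 genes. With normal chow library 2 left out, edgeR called 12 of the 78 lower and 0 higher, against 3.27% lower and 2.38% higher of 19026 genes. The sets shared 6 genes, Mrpl14, Mrpl23, Mrpl52, Mrpl54, Mrps21 and Mrps28. With any other library left out, edgeR called 0 of the 78.

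The 8 genes with the smallest p were Mrps28, Mrps21, Mrpl52, Mrpl54, Mrpl14, Mrpl23, Mrpl57 and Mrps15. All 8 were lower on PE-MP chow without overlap under TMM scaling, and all 8 were the genes that DESeq2 called. The 8 were picked by p from the same libraries, so neither of these is separate support. Under scaling to total counts the log2 fold changes of the 8 were still negative, at -0.50 to -0.26, but only 2 of the 8 kept the chows apart.

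Among proteins of the small subunit, Mrps28, which carries an S1-type RNA-binding domain, had 10.04, 9.26 and 9.91 CPM on PE-MP chow, against 15.3, 14.4 and 18.2 CPM on normal chow. Its log2 fold change was -0.71 ± 0.14 (SE, edgeR adjusted p 0.128), and the highest PE-MP library lay below the lowest normal chow library. Mrps21, the counterpart of bacterial S21, had 24.6, 21.4 and 24.5 CPM on PE-MP chow, against 39.0, 32.2 and 40.1 CPM on normal chow (log2 fold change -0.66 ± 0.13 SE, edgeR adjusted p 0.128). The PE-MP libraries were close together, and normal chow library 2 was the lowest of its chow. Mrps15, which binds the small subunit rRNA, had 14.2, 16.4 and 15.7 CPM on PE-MP chow, against 21.3, 20.4 and 26.6 CPM on normal chow (log2 fold change -0.57 ± 0.15 SE, edgeR adjusted p 0.155). Here normal chow library 3 stood above the other two.

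In the large subunit, 3 of the 8 encode proteins with no bacterial counterpart. Mrpl54 had the lowest log2 fold change of the 78, -0.80 ± 0.17 (SE, edgeR adjusted p 0.135), with 13.2, 11.7 and 13.2 CPM on PE-MP chow, against 23.4, 17.4 and 25.7 CPM on normal chow. Mrpl52 had 22.3, 22.5 and 25.9 CPM on PE-MP chow, against 40.3, 32.3 and 44.9 CPM on normal chow (log2 fold change -0.73 ± 0.15 SE, edgeR adjusted p 0.131). Both had normal chow library 2 as the lowest of its chow and still above every PE-MP library. Mrpl57 had 15.3, 11.8 and 14.9 CPM on PE-MP chow, against 20.8, 20.4 and 26.0 CPM on normal chow (log2 fold change -0.68 ± 0.17 SE, edgeR adjusted p 0.145). PE-MP library 2 was the lowest of all 6 for Mrpl57.

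The other 2 large subunit genes of the 8 have bacterial counterparts. Mrpl14, whose bacterial counterpart lies at the face that meets the small subunit, had 43.8, 40.7 and 43.3 CPM on PE-MP chow, against 64.9, 54.8 and 77.4 CPM on normal chow (log2 fold change -0.63 ± 0.15 SE, edgeR adjusted p 0.139). Mrpl23, at the exit of the peptide tunnel, had 15.9, 15.0 and 16.3 CPM on PE-MP chow, against 25.5, 19.9 and 27.6 CPM on normal chow (log2 fold change -0.63 ± 0.15 SE, edgeR adjusted p 0.144). In both, the PE-MP libraries lay closer together than the normal chow libraries, among which library 2 was lowest and library 3 highest.

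**Figure D2:**
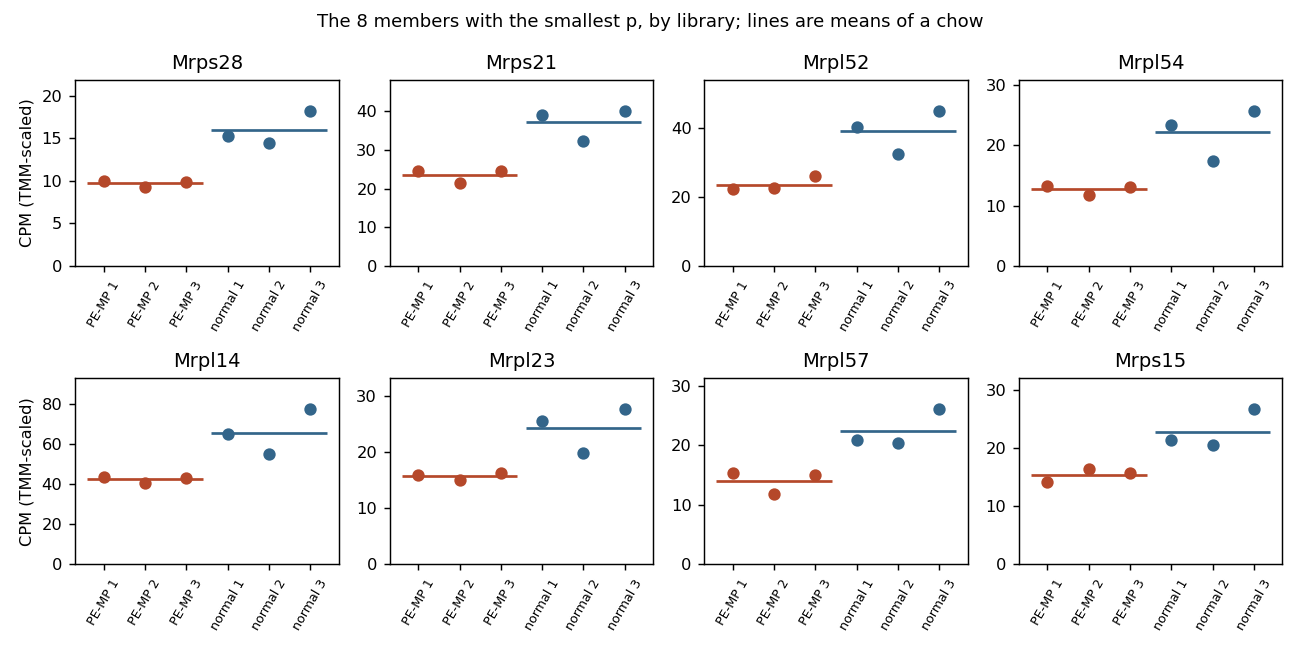
Level (TMM-scaled CPM, axes from 0) of the 8 genes with the smallest edgeR p in each library, PE-MP chow left in red and normal chow right in blue, with lines at the mean of each chow. In each panel the 3 PE-MP libraries lie below the 3 normal chow libraries, as in Mrps28 with 10.04, 9.26 and 9.91 CPM against 15.3, 14.4 and 18.2 CPM.

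Both subunits had negative medians under TMM scaling. The 49 Mrpl genes had a median log2 fold change of -0.31, with 43 negative values, 14 unadjusted p under 0.05 and 23 genes (46.9%) without overlap, all lower on PE-MP chow. The 29 Mrps genes had a median of -0.21, with 26 negative, 8 under the unadjusted p threshold and 7 (24.1%) without overlap, again all lower. Of all tested genes, 48.3% were negative, 8.82% lower at that unadjusted p and 11.8% lower without overlap. The symbols do not follow the structure everywhere: the products of Mrps18a and Mrps30 sit in the large subunit, and that of Mrps36 is no longer counted as a ribosomal protein but as part of the 2-oxoglutarate dehydrogenase complex. By origin, the 47 genes with a bacterial counterpart had a median of -0.29 and the 29 mitochondrion-specific genes -0.24. Among the 9 mitochondrion-specific genes of the small subunit the median was -0.17, with 0 under the unadjusted p threshold and 0 without overlap, and the difference between classes was not tested. With total counts the medians were -0.009 for Mrpl and 0.09 for Mrps genes, so both positions rest on the scaling.

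Functional sites of the particle were read from a set chosen for their roles. Mrpl12, Mrpl10 and Mrpl11 build the stalk and its base, where translation factors dock. Mrpl12, the most abundant of the 3, had 99.2, 93.1 and 98.7 CPM on PE-MP chow, against 127, 99.4 and 139 CPM on normal chow (log2 fold change -0.33 ± 0.15 SE, edgeR adjusted p 0.301). Mrpl11 had 18.0, 19.4 and 17.5 CPM on PE-MP chow, against 23.1, 19.9 and 26.8 CPM on normal chow (log2 fold change -0.34 ± 0.15 SE, edgeR adjusted p 0.282). In both genes normal chow library 2 lay just above the highest PE-MP library. Mrpl10 had 41.5, 38.7 and 36.8 CPM on PE-MP chow, against 57.1, 37.3 and 56.5 CPM on normal chow, so the chows overlapped through library 2 (log2 fold change -0.37 ± 0.18 SE, edgeR adjusted p 0.340).

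Mrps12 lies at the decoding centre, where codon and anticodon are matched, and had 24.8, 22.1 and 21.3 CPM on PE-MP chow, against 33.4, 25.9 and 33.3 CPM on normal chow (log2 fold change -0.44 ± 0.15 SE, edgeR adjusted p 0.204). Mrpl45, which ties the ribosome to the inner membrane, had 25.04, 26.3 and 24.6 CPM on PE-MP chow, against 37.8, 28.6 and 47.9 CPM on normal chow (log2 fold change -0.59 ± 0.19 SE, edgeR adjusted p 0.199). Neither pair of chows overlapped, and without normal chow library 2 both were among the 12 called lower. Mrpl58, a peptidyl-tRNA hydrolase built into the large subunit, had 23.2, 20.2 and 20.7 CPM on PE-MP chow, against 29.4, 20.8 and 29.8 CPM on normal chow (log2 fold change -0.32 ± 0.17 SE, edgeR adjusted p 0.372), and its chows overlapped.

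The mouse has 3 forms of ribosomal protein S18 in mitochondria, and their values differed in position. Mrps18a had 23.8, 21.0 and 21.2 CPM on PE-MP chow, against 31.7, 24.0 and 31.0 CPM on normal chow (log2 fold change -0.39 ± 0.15 SE, edgeR adjusted p 0.239), with no overlap by a narrow margin. Mrps18b had 29.8, 27.7 and 25.1 CPM on PE-MP chow, against 31.1, 24.2 and 34.2 CPM on normal chow (log2 fold change -0.12 ± 0.16 SE, edgeR adjusted p 0.725). Mrps18c had 20.7, 20.9 and 18.0 CPM on PE-MP chow, against 18.4, 24.6 and 26.7 CPM on normal chow (log2 fold change -0.22 ± 0.17 SE, edgeR adjusted p 0.516). The chows overlapped for Mrps18b and Mrps18c, and the difference between the 3 forms was not tested.

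Positive log2 fold changes were few, 9 of the 78, and none of the 9 separated the chows under TMM scaling. With total counts 43 were positive, and 11 of these lay above normal chow in every PE-MP library. The median of all tested genes was 0.32 under that scaling. The share of all genes that separated upward there is not given, so the 11 are not read as a result. Mrpl15, the counterpart of bacterial L15, had 40.7, 44.7 and 28.6 CPM on PE-MP chow, against 24.4, 32.2 and 26.3 CPM on normal chow (log2 fold change 0.46 ± 0.20 SE, edgeR adjusted p 0.288). PE-MP libraries 1 and 2 were highest, and PE-MP library 3 lay within the normal chow range. Mrpl47 had 11.9, 12.5 and 13.3 CPM on PE-MP chow, against 10.4, 11.3 and 12.1 CPM on normal chow (log2 fold change 0.16 ± 0.13 SE, edgeR adjusted p 0.551). Mrpl1, the protein of the mobile stalk beside the tRNA exit site, had 17.4, 18.8 and 18.0 CPM on PE-MP chow, against 12.5, 21.2 and 16.3 CPM on normal chow (log2 fold change 0.11 ± 0.20 SE, edgeR adjusted p 0.793). For Mrpl1 all 3 PE-MP libraries fell inside the range of normal chow.

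Mrpl24 and Mrpl50 sat near 0 under TMM scaling. With total counts their log2 fold changes were 0.36 and 0.32, where the median of all tested genes was 0.32. Mrpl24 had 47.8, 46.8 and 45.4 CPM on PE-MP chow, against 48.3, 39.5 and 46.3 CPM on normal chow (log2 fold change 0.06, 95% interval -0.22 to 0.34, edgeR adjusted p 0.808). Mrpl50 had 29.2, 33.2 and 32.7 CPM on PE-MP chow, against 26.8, 34.2 and 33.0 CPM on normal chow (log2 fold change 0.02, 95% interval -0.31 to 0.34, edgeR adjusted p 0.961). The chows overlapped in both.

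A further group of 6 genes varied more than 2-fold within a chow, named in turn below. The median ratio of the highest to the lowest library over the 78 genes was 1.13 on PE-MP chow and 1.32 on normal chow. Over all tested genes with counts in every library it was 1.32 and 1.51. Without normal chow library 2 the ratio over the 78 was 1.09 on normal chow, but leaving out any library cannot raise such a ratio. Mrps31 had 22.4, 17.2 and 4.11 CPM on PE-MP chow, against 5.61, 20.3 and 6.41 CPM on normal chow, so 2 libraries of the PE-MP chow and 1 of the normal chow were high (log2 fold change 0.44 ± 0.75 SE, edgeR adjusted p 0.790). Mrps34 was high in PE-MP library 1, with 41.4, 22.6 and 20.6 CPM on PE-MP chow, against 22.6, 15.8 and 19.8 CPM on normal chow (log2 fold change 0.54 ± 0.30 SE, edgeR adjusted p 0.385, and 0.16 without that library). Mrpl18, whose bacterial counterpart contacts 5S rRNA, was low in normal chow libraries 1 and 3, with 8.84, 7.02 and 8.45 CPM on PE-MP chow, against 3.71, 8.69 and 5.08 CPM on normal chow (log2 fold change 0.48 ± 0.32 SE, edgeR adjusted p 0.461).

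The next 3 genes were singled out after their values were seen. Mrpl20, whose bacterial counterpart joins the large subunit early in assembly, had 34.8, 7.65 and 29.98 CPM on PE-MP chow, against 41.7, 37.0 and 42.2 CPM on normal chow. PE-MP library 2 was the single low value, and the chows did not overlap with it or among the rest (log2 fold change -0.74 ± 0.52 SE, edgeR adjusted p 0.488, and -0.32 without that library). Mrpl38 had 26.1, 30.8 and 15.4 CPM on PE-MP chow, against 26.6, 11.9 and 51.9 CPM on normal chow (log2 fold change -0.33 ± 0.54 SE, edgeR adjusted p 0.783). Its extremes were both normal chow libraries. Mrpl4, which lines the peptide tunnel, had 24.5, 20.4 and 13.9 CPM on PE-MP chow, against 28.4, 20.2 and 13.1 CPM on normal chow, so the PE-MP libraries lay within the range of normal chow (log2 fold change -0.07 ± 0.32 SE, edgeR adjusted p 0.925). With all 6 of these genes left out, a choice made after seeing the data, the median of the other 72 was -0.29 and 66 of them were negative.

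**Figure D3:**
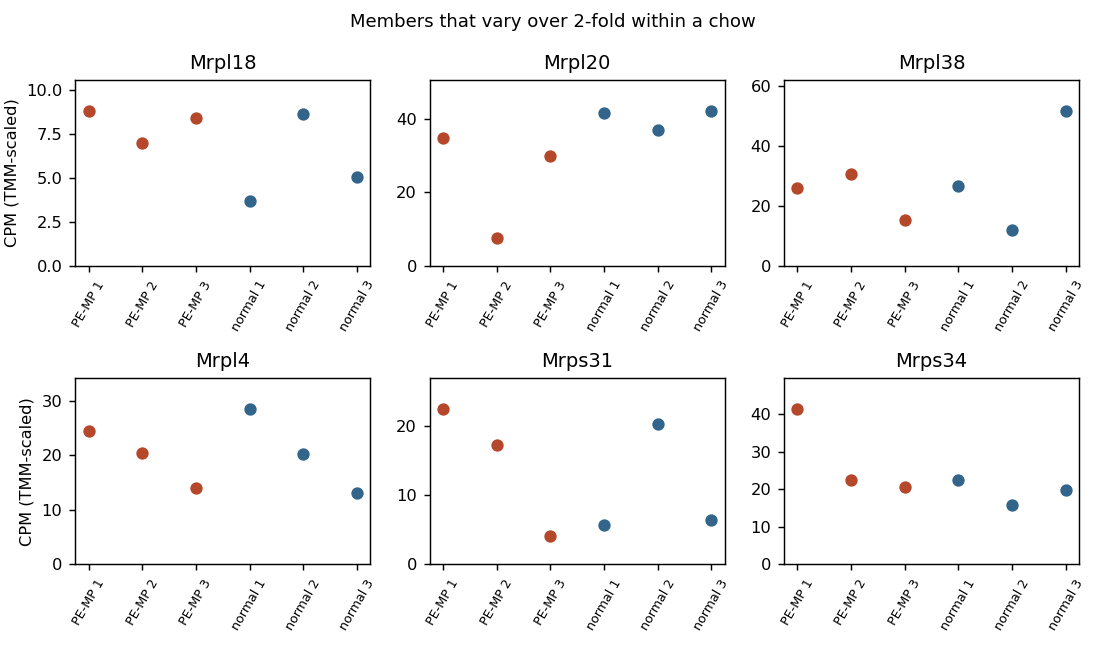
Level (TMM-scaled CPM, axes from 0) in each library of the 6 genes whose highest library was over 2 times the lowest within a chow, PE-MP chow left in red and normal chow right in blue. Different libraries are extreme in different genes, such as PE-MP library 2 for Mrpl20 at 7.65 CPM and normal chow library 3 for Mrpl38 at 51.9 CPM.

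Across the 78 genes the libraries moved as sets. The geometric mean over the 78 was 21.9, 20.3 and 20.2 CPM on PE-MP chow, against 25.4, 22.1 and 27.1 CPM on normal chow, or 20.8 ± 0.940 and 24.9 ± 2.57 CPM (SD, n = 3 each). Under TMM scaling the PE-MP libraries all lay below the normal chow libraries, but normal chow library 2 was 22.1 CPM beside 21.9 CPM in PE-MP library 1. With total counts the median log2 fold change of the 78 was 0.011, so this order rests on the scaling. Library 2 was the lowest of its chow in 63 of the 78 genes and the highest in 6. It also had the highest 18S share, 11.2%, and the fewest counts of the 6 libraries, and the part of these in its lower values was not tested. With 3 libraries a chow, the smallest p an exact two-sided permutation test can give is 0.1, so none is given for this mean.

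**Figure D4:**
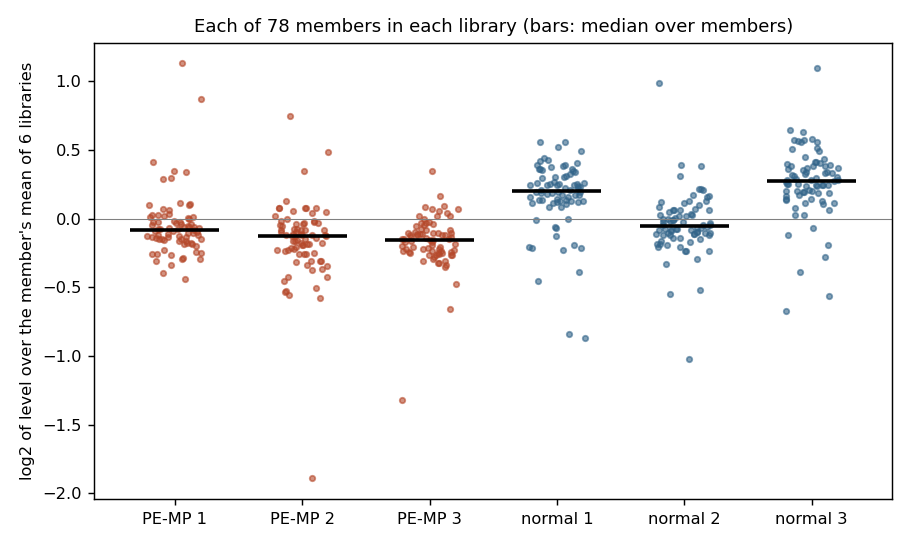
Each of the 78 genes in each library as log2 of its level (TMM-scaled CPM) over its own mean of the 6 libraries (points), with the median over the genes as a black bar, PE-MP chow left in red and normal chow right in blue. The bars stand at -0.08, -0.13 and -0.15 on PE-MP chow and at 0.20, -0.06 and 0.27 on normal chow, so normal chow library 2 lies near the PE-MP libraries.

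Per kilobase of transcript, the subunit mRNAs were not at one level. The mean over the 6 libraries ranged over 33.3-fold, with a median of 22.4 CPM per kilobase and quartiles of 12.3 and 33.8. Mrpl14 (83.9), Mrpl12 (83.2) and Mrpl52 (75.02 CPM per kilobase) stood at the top, and neighbours this close in the order do not differ beyond their spread. Mrpl19 (2.52), Mrps25 (2.94) and Mrpl47 (3.54 CPM per kilobase) stood at the bottom. These 3 have some of the longest annotated transcripts of the 78, with 5000 bases for Mrpl19 and 6073 for Mrps25, so their place depends on the length taken from the annotation. Mrpl19 had 11.9, 12.3 and 10.9 CPM on PE-MP chow, against 14.4, 11.6 and 14.3 CPM on normal chow (log2 fold change -0.20 ± 0.14 SE, edgeR adjusted p 0.503). Mrps25 had 16.4, 18.5 and 16.5 CPM on PE-MP chow, against 20.7, 18.6 and 16.3 CPM on normal chow (log2 fold change -0.11 ± 0.14 SE, edgeR adjusted p 0.693). The chows overlapped for both.

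Transcript length went with the values. The mitochondrial ribosomal protein mRNAs are short, with a median of 1051.5 bases against 1865 for all tested genes with a length. Among the 25 genes of up to 800 bases the median log2 fold change was -0.37, all 25 were negative, and 13 had an unadjusted p under 0.05, against a median of -0.20, 64.2% negative and 17.1% with a lower level at an unadjusted p under 0.05 for all 3167 tested genes of that length. Between 800 and 1500 bases the median was -0.27 in 30 genes, against -0.07 in all genes, and above 1500 bases -0.17 in 23 genes, against 0.08. In each class the median of the mitochondrial ribosomal protein genes thus lay below that of all tested genes of that length. In the 2 longer classes 26 of the 30 and 18 of the 23 were negative, against 56.8% and 41.0% of all genes. At an unadjusted edgeR p under 0.05, 6 of the 30 and 3 of the 23 were lower, against 12.5% and 5.18% of all genes. By GC content the medians were -0.19 up to 48%, -0.30 from 48% to 54% and -0.39 above 54%, against 0.13, -0.04 and -0.08 over all genes. In these GC classes 4 of 21, 6 of 36 and 12 of 21 were lower at that unadjusted p. The shares of all genes were 5.67%, 9.76% and 12.1%.

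Across the 78 genes Spearman's rho between log2 fold change and length was 0.44 and with GC content -0.41, against 0.24 and -0.20 over all tested genes. These are descriptions across genes that share the same 6 libraries. With a smooth trend on length and GC content taken out, the median of the 78 moved to -0.17, with 66 negative, and that of all genes stayed at 0.02.

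**Figure D5:**
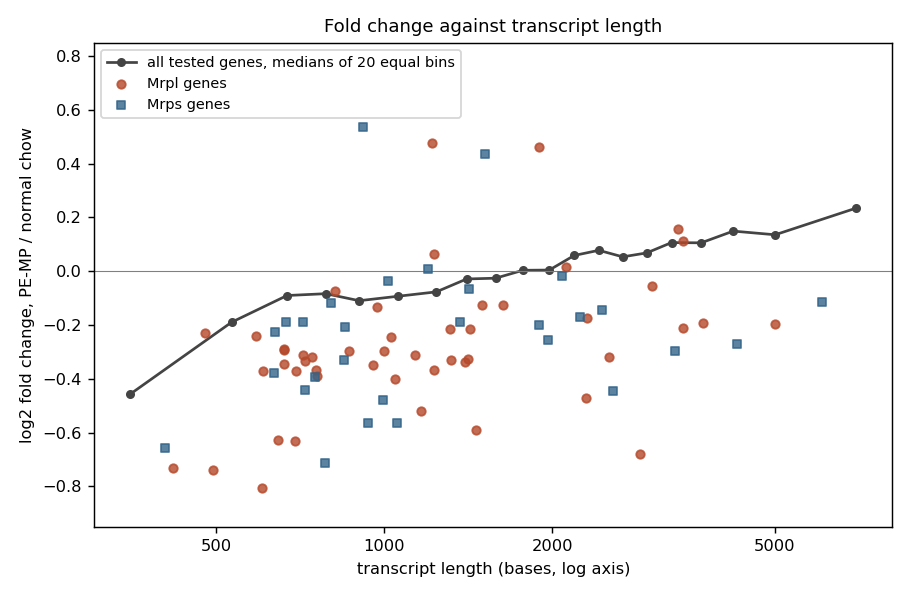
Log2 fold change of PE-MP chow over normal chow against annotated transcript length (log axis) for the 49 Mrpl genes (circles) and 29 Mrps genes (squares), with medians of all tested genes in 20 bins of equal size (black line). The 25 genes of up to 800 bases lie below 0, with a median of -0.37, and the medians of the longer classes are -0.27 and -0.17.

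Ribosome subunits with other names and the factors around the ribosome gave mixed values. Of 5 further subunit genes, Gadd45gip1 was at -0.66 ± 0.16 on the log2 scale (SE, edgeR adjusted p 0.144) and Aurkaip1 at -0.54 ± 0.14 (SE, edgeR adjusted p 0.152). Both were lower in every PE-MP library. Dap3, Ptcd3 and Chchd1 were at -0.05, 0.02 and -0.04. The 25 assembly factors had a median of -0.14 with 16 negative. At an unadjusted p under 0.05, 1 (4%) was lower and 0 higher, against 8.82% and 9.1% of all tested genes. Without overlap, 5 (20%) were lower and 4 (16%) higher, against 11.8% and 14.2%. The 17 translation factors had a median of -0.08, with 2 lower and 1 higher at that unadjusted p, against the same 8.82% and 9.1%. The one higher was Metap1d, which removes the first methionine of new proteins (log2 fold change 0.74 ± 0.15 SE, edgeR adjusted p 0.128). The 17 mitochondrial aminoacyl-tRNA synthetases had a median of -0.02, with 0 below that unadjusted threshold. Single libraries moved these medians: the synthetases ranged from -0.13 without normal chow library 2 to 0.046 without normal chow library 1, the translation factors from -0.24 without PE-MP library 2 to -0.039 without PE-MP library 3, the other subunits from -0.45 without PE-MP library 3 to 0.025 without normal chow library 3, and the assembly factors from -0.21 without normal chow library 2 to -0.10 without PE-MP library 2. By edgeR's adjusted p, 0 genes of these lists passed. With total counts the medians turned positive, to 0.27 for the other subunits, 0.17 for the assembly factors, 0.22 for the translation factors and 0.27 for the synthetases, below the 0.32 of all genes in each list.

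Other ribosomal and mitochondrial genes are set beside the 78 to place their values. The 76 cytosolic ribosomal protein genes had a median log2 fold change of -0.22 with 71 negative, and with length and GC content taken out their median was -0.01, against -0.17 for the mitochondrial ones. Of the 76, 27 (35.5%) were lower at an unadjusted edgeR p under 0.05 and 48 (63.2%) lower without overlap. The 37 tested nuclear complex I subunits had a median of -0.48 with 36 negative, and -0.27 after the same step. Of the 37, 31 (83.8%) were lower at that unadjusted p and 32 (86.5%) lower without overlap. These shares were 28.2% and 38.5% for the 78 and 8.82% and 11.8% for all tested genes. The lean was thus not particular to the mitochondrial ribosome. The 13 mitochondrially encoded mRNAs, the templates of this ribosome, had a median of -1.02, all 13 were negative, and 12 were lower at an unadjusted p under 0.05, against 48.3% and 8.82% of all tested genes. None of these lists had a gene past the adjusted threshold in edgeR, and no test compared the lists. With total counts the medians were 0.08 for the cytosolic ribosomal proteins, -0.18 for complex I and -0.73 for the mitochondrial mRNAs. The 2 ribosomal RNAs of the particle, mt-Rnr1 and mt-Rnr2, varied more between libraries than between chows, with log2 fold changes of -0.58 ± 0.43 and -0.16 ± 0.62 (SE), and poly(A) selection catches them only in part.

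Promoters of the 78 genes were read to see what they share that their symbols do not tell. RefSeq's promoter table (GRCm38.p6, 250 bases before to 50 after each start) held 69 of the 78, and each motif was searched on both strands. The ETS core CGGAAG stood in 39 of the 69 (56.5%), against 18.8% of all 27025 genes in the table and 31.9% of the 11672 tested ones. The YY1 motif AAGATGGCG stood in 8 (11.6%), against 1.64% and 3.19%, and the NRF1 motif CGCATGCG in 7 (10.1%), against 2.07% and 3.86%. A longer ETS form that contains the core, CCGGAAGT, stood in 12 (17.4%), against 4.31% and 8.22%. The TATA box TATAAA stood in 5 (7.25%), against 15.7% and 9.81%, the GC box GGGCGG in 34 (49.3%), against 38.2% and 64.0%, and CCAAT in 27 (39.1%), against 41.1% and 42.7%. The genes with the ETS core had a median log2 fold change of -0.30 and those without it -0.29.

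The stretches from 100 bases before to 30 after the start are printed for 6 genes, picked with the ETS core in view. They therefore do not show how often the core occurs, and of the 6 only Mrpl47 has a log2 fold change above 0. Mrpl18 and Mrps31, with higher log2 fold changes than any of the 6, have no ETS core in this window. Mrpl24 and Mrpl50, also above 0, have none either, while Mrpl1, above 0 as well, carries it once. Capitals mark the ETS core on either strand (CGGAAG or CTTCCG) and, in Mrps18a, the YY1 motif. Mrps21 (chr3:95871485-95871614, minus strand) carries the core a pair of times in direct succession just after the start, and Mrpl52 (chr14:54426809-54426938, plus strand) a pair of times further apart. Mrpl57 (chr14:57826139-57826268, plus strand) and Mrpl47 (chr3:32736726-32736855, minus strand), which stand on opposite sides of 0 in log2 fold change, carry it once each. Mrps18a (chr17:46110904-46111033, plus strand) holds adjoining ETS cores upstream of a YY1 motif, and Mrpl14 (chr17:45686249-45686378, plus strand) has none of the 3 motifs in this window.
Mrps21: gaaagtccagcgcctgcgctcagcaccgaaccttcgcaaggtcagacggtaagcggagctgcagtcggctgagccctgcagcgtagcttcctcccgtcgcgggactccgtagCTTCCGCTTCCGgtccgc
Mrpl52: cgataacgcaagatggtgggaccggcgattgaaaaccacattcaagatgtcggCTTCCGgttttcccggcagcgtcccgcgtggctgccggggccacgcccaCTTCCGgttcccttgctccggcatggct
Mrpl57: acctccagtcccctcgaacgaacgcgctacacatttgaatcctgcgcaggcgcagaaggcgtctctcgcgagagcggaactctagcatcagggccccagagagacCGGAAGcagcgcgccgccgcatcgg
Mrpl47: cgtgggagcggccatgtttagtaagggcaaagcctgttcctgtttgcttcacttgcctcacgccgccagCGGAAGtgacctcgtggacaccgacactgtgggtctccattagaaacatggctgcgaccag
Mrps18a: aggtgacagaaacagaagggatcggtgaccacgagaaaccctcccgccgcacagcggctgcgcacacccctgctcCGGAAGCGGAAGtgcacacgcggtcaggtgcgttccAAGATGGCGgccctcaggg
Mrpl14: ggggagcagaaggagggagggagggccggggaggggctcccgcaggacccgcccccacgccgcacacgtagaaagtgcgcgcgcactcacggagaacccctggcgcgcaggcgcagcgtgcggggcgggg

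Counting may blur some of these genes, since the strand setting of the counts is not given in the sources used here. In the GENCODE M21 annotation, 42 of the 78 overlap another gene, 13 of them one on the same strand and 36 one on the opposite strand. Mrpl46 and Mrps11 overlap each other. Among genes with positive values, Mrps34 overlaps Nme3 and Mapk8ip3, Mrpl18 overlaps Tcp1, Mrpl47 overlaps Ndufb5 and Actl6a, Mrpl24 overlaps Rrnad1, and Mrpl15 overlaps Gm37144, so these values are uncertain. Ndufb5 had 4212 to 8854 counts in a library, beside 679 to 1432 for Mrpl47, and Gm37144 had 55 to 139, beside 1709 to 3852 for Mrpl15. Mrpl14 overlaps Tmem63b on the opposite strand, which had 1738, 2072 and 2248 counts on PE-MP chow and 3097, 2171 and 4513 on normal chow. Mrpl14 itself had 4139, 3337 and 4653 counts on PE-MP chow and 4546, 3295 and 7835 on normal chow, so its value is uncertain too. Mrps28 overlaps the processed pseudogenes Gm15466 and Gm15467, which had at most 7 counts in a library. Of the pseudogene rows, Mrpl23-ps1 had 108, 114 and 169 counts on PE-MP chow and 207, 103 and 339 on normal chow, and reads could have been split between it and Mrpl23. Mrpl20, Mrps31, Mrpl38 and Mrpl4, which varied within a chow, overlap no other annotated gene.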

How the data were processed

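Counts per gene for 6 liver libraries were used as the authors deposited them: whole numbers, not normalised, for 56674 rows. The libraries were made from poly(A)-selected RNA with a strand-keeping kit, per the labels' protocols. The build is GRCm39 and bcl2fastq was run, per the submitters' processing notes; the aligner, counter, annotation and strand option were not given in the sources used here. Every row named a gene, and 939 rows with a repeated symbol were kept apart. Groups come from the labels.

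Genes passing edgeR's default expression filter were tested with edgeR 4.0.16 (R 4.3.3), TMM factors and the robust quasi-likelihood F test, two-sided, PE-MP chow over normal chow, with Benjamini-Hochberg adjustment over all 18043 genes at 0.05. The scripts were tested on simulated data. DESeq2 1.42.0, limma-voom 3.58.1, other scalings and filters and each library left out were alternatives. Lengths and GC content are medians over protein-coding transcripts of GENCODE M21, and promoters are from RefSeq, both on GRCm38, an earlier build than that of the counts, so the genes were matched by symbol.

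The members and lists were chosen with earlier results of these data known. Named with values were the 8 members with the smallest p in each direction, the 3 highest and the 3 lowest per kilobase, and a set chosen by role; of each comparison list, those with the smallest p could be named. Each member had at least 260 counts in every library, and 3 libraries a chow limit the precision.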

Additional observations from a re-analysis of the deposited data

How the results depend on the processing

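Across the planned settings the median log2 fold change of the 78 genes stayed negative, from -0.39 without normal chow library 2 to -0.17 with a length and GC trend removed; leaving out 1 library gave -0.39 to -0.21. Of settings added after seeing the data, total counts moved it to 0.011 and total counts outside mitochondrial and 18S rows to -0.12, because the median of all genes moved with them, to 0.32 and 0.18. Beside 1 gene called in all, there were 53 at an adjusted p of 0.1, 3 with RLE factors, 1186 with DESeq2, 19 with limma-voom, 23 with no expression filter, 22 with the stricter filter, 10 with total counts, 0 with the replicate block, and 1 to 1075 when leaving out 1 library. Of the 78, 8 passed with DESeq2 and 0 to 12 when leaving out 1 library, the 12 without normal chow library 2, and 0 under every other setting run. Those with an unadjusted p under 0.05 numbered 8 to 51 and those without overlap 32 to 62 when leaving out 1 library. With total counts they were 9 (6 higher, 3 lower) and 13 (11 higher, 2 lower). Shares over all tested genes are not given for these settings or for the replicate block, so these counts have no background beside them. A chow with 1 library fewer also separates more easily from the other. The same replicate numbers correlated at 0.05, 0.08 and 0.18, and not every library correlated best with its own number, so they share only a number; the replicate block gave a median of -0.27 and 20 members under the unadjusted p threshold.

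With total counts 35 of the 78 values were negative, against 69 with TMM. Among the genes named with their values, signs turned as follows, and the cause was not tested. With that trend removed, Mrpl1 was -0.12, Mrpl4 0.20, Mrpl50 -0.16 and Mrps18b 0.083. With total counts, Mrpl19 was 0.10, Mrpl4 0.21, Mrps18b 0.18, Mrps18c 0.077 and Mrps25 0.19, and outside mitochondrial and 18S rows Mrpl4 was 0.082, Mrps18b 0.054 and Mrps25 0.046. Leaving out 1 library gave -0.059 to 0.32 for Mrpl1, -0.024 to 0.12 for Mrpl24, -0.71 to 0.32 for Mrpl38, -0.32 to 0.23 for Mrpl4, -0.088 to 0.079 for Mrpl50 and -0.025 to 1.27 for Mrps31. Each of the 78 had at least 260 counts in every library.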
